A study of Saccharomyces cerevisiae with 10 samples.

Results

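The transcriptome of the high subpopulation, 1 h after a downshift from rich medium to proline, is described here. It was read from the 5 libraries named as high (H1_2609, H2_2609, H1_2709, H2_2709 and H_2909) of the 10 libraries in the series. The other 5 hold the low subpopulation and were not used. The study asked how isogenic cells of budding yeast divide into high and low subpopulations when a good nitrogen source is replaced by a poor one. Cells came from a prototrophic derivative of the haploid laboratory strain BY4741 that carries sfGFP, a fast-folding green fluorescent protein, behind the promoter of the ribosomal protein gene RPL28 (pRPL28 GFP). All libraries shared this strain, growth in YPD, washing in PBS and 1 h in NLIM-PRO, a glucose medium with 0.8 mM proline as the nitrogen source. High cells were those sorted for stronger GFP fluorescence and larger size, with doublets and budded cells gated out, and they waited in cold PBS during the sort. The reporter strain is a single construct, and the labels call the libraries biological replicates without saying which were sorted together. The library names are used only as names.

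Proline is a poor nitrogen source for yeast. When ammonium or glutamine runs out, nitrogen catabolite repression is lifted, and GATA factors such as Gln3 and Gat1 activate permeases and catabolic enzymes, among them the Put enzymes that turn proline into glutamate. Low TORC1 and protein kinase A activity also lets the stress factors Msn2 and Msn4 into the nucleus, where they bind the stress response element, while genes for ribosomes and for ribosome assembly are repressed. Amino acid shortage acts through the activator Gcn4. Which of these programmes fill the messenger pool of sorted high cells is a question of levels within a sample, so every value below is a level and no comparison with low cells is made.

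The 5 libraries held 22167864 to 27752702 counts over 7252 genes. Levels are given in TPM (transcripts per 1000000 transcripts), that is counts divided by gene length and scaled to the same sum of 1000000 in each library, as mean ± SD over the 5 libraries. Protein-coding genes took 98.9% to 99.4% of TPM, and 3 counts in a gene of median length stood for 0.0964 to 0.123 TPM. Messenger RNA was enriched by its poly(A) tail, so transfer, ribosomal, small nucleolar and mitochondrial RNAs were undersampled and their low values are no sign of silence. Genes that share their span with another gene had counts that depend on how shared reads were assigned, which is not given in the sources used here. This touched 1420 genes, 678 of them over more than 50% of the span. The transcript of the sort reporter, sfGFP (listed as GFP), was read at 130, 502, 285, 227 and 90.9 TPM in H1_2609, H2_2609, H1_2709, H2_2709 and H_2909. Libraries labelled alike thus differed by 5.53 times in the message of the protein used for sorting.

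Short transcripts, several of them from stress-response genes, led the ranking by TPM. The 5 highest genes held 8.83% ± 1.46 of TPM, the 30 highest 21.1% ± 1.94 and the 100 highest 33.9% ± 2.78. In the ranking by mean, 298 genes held 50% of TPM, and in single libraries this number ran from 214 in H1_2609 to 369 in H2_2609. The median protein-coding gene stood at 44.2 TPM, 742 times below the highest. Expression was broad all the same. Of 7252 genes, 6593 reached 1 TPM (90.9%), 5565 reached 10 TPM, 1880 reached 100 TPM, 153 reached 1000 TPM and 6 exceeded 10000 TPM.

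**Figure D1:**
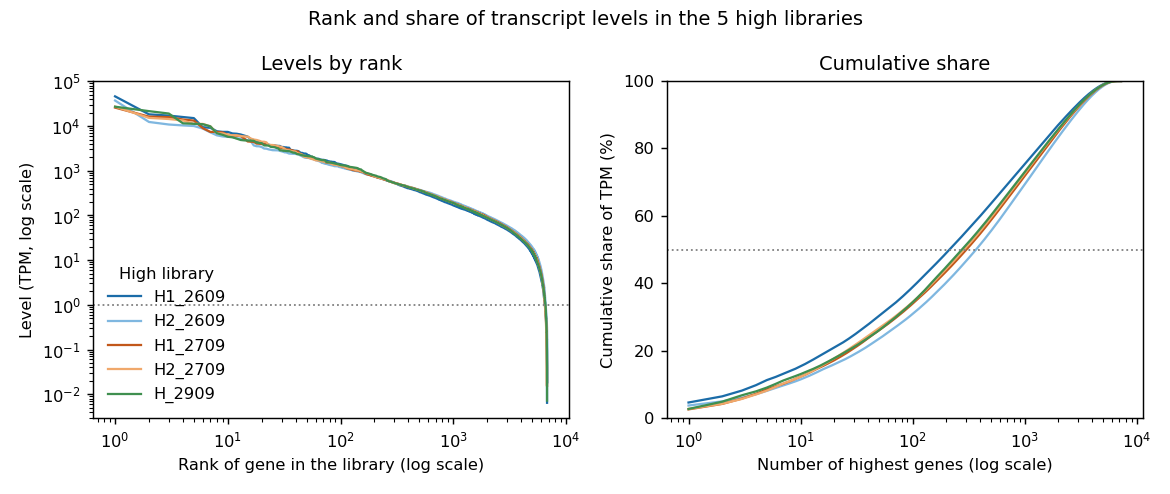
Level (TPM) of each gene against its rank within a library, and cumulative share of TPM (%) against the number of highest genes, 1 line for each of the 5 high libraries. The curves of H1_2709, H2_2709 and H_2909 lie close together, H1_2609 reached 50% with the fewest genes (214) and H2_2609 with the most (369).

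HSP12 was the most abundant transcript in every library. This gene encodes a small heat shock protein that associates with membranes. Its level was 46267 TPM in H1_2609, 37299 in H2_2609, 25906 in H1_2709, 27296 in H2_2709 and 27143 in H_2909 (32782 ± 8824). H1_2609 and H2_2609 were thus above the other 3, and the lowest HSP12 value still exceeded the highest value of any other gene. Next came HOR7 at 15938 ± 2477 TPM, a hyperosmolarity-responsive gene of unknown function, then SPO24 at 15599 ± 4011 TPM and TMA10, the paralogue of STF2, at 12175 ± 1954 TPM. DDR2, a multistress gene and the paralogue of HOR7, stood at 18317, 10039, 8997, 9914 and 11526 TPM in the same library order. H1_2609 was thus far above the rest for DDR2, whereas HOR7 peaked in H_2909 at 19070 TPM. The sixth was CCW12 at 11228 ± 3026 TPM, a mannoprotein that stabilises the cell wall at sites of growth, lowest in H1_2609 (7655 TPM) and highest in H2_2709 (14396 TPM).

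SPO24, in the third place, was named for a role in sporulation. Its levels were 15993, 10841, 16249, 13318 and 21592 TPM, highest in H_2909. It holds 204 bases of coding length, and SPO24 (YPR036W-A) ranked 21 by CPM (counts scaled to the same sum of 1000000 per library, without length).

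Order among the highest genes was mostly not resolved. In 30 pairs of neighbouring ranks, the gene with the higher mean was higher in all 5 libraries in only 3 pairs, HSP12 over HOR7, SPO24 over TMA10 and GLK1 over MSC1. With 200 bases taken off each length, but no length set under 100 bases, HOR7, SPO24 and TMA10 all counted as 100 bases. SPO24 (20454 TPM) and TMA10 (20416 TPM) were then level and above HOR7 (18441 TPM), so their order rests on the lengths used. In 20 pairs the gene with the higher mean was higher in 3 or 4 libraries and in 7 in at most 2. Membership was firmer, with 20 genes in the 30 highest of every library. Gene length also shaped the ranking, since the 30 highest had a median coding length of 456 bases against 1077 for all protein-coding genes, and 14 of these 30 were also among the 30 highest by CPM. HSP12 led on both scales (11137 ± 3056 CPM), but by CPM the next genes were HXK1 (9719 ± 1505 CPM), TDH3 (9076 ± 2089 CPM) and GLK1 (8339 ± 1860 CPM). RPL41A, with only 78 bases, was the thirtieth by TPM and ranked 881 by CPM.

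**Figure D2:**
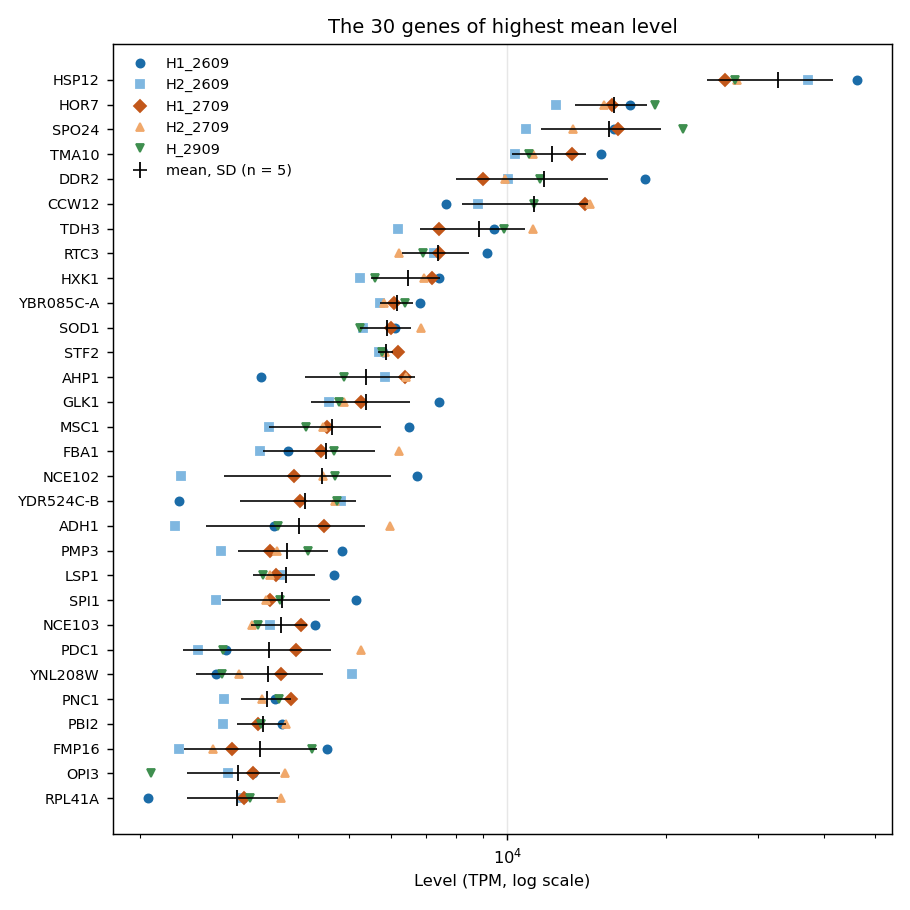
Levels (TPM, log axis) of the 30 genes of highest mean level, with a point for each of the 5 high libraries and a black mark and bar for mean and SD. HSP12 stands alone at the top, between 25906 and 46267 TPM, while most neighbouring genes overlap.

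By function, the 30 highest combined stress and starvation genes, sugar metabolism and the cell surface. Stress genes included RTC3 (7387 ± 1084 TPM), STF2 (5871 ± 186 TPM), which stabilises the inhibited ATP synthase, MSC1 (4632 ± 1111 TPM) and PNC1 (3496 ± 379 TPM), the nicotinamidase that promotes Sir2 activity. STF2 hardly varied, with 5713 to 6189 TPM over the libraries. Defence against oxidants was led by the copper-zinc superoxide dismutase SOD1 at 5903 ± 663 TPM and the thiol peroxidase AHP1 at 5391 ± 1274 TPM. The plasma membrane contributed NCE102 (4450 ± 1564 TPM) and LSP1 (3796 ± 506 TPM), both parts of eisosomes, the membrane furrows of yeast, together with PMP3 (3814 ± 742 TPM). SPI1 (3729 ± 863 TPM), a wall protein of stationary cells, NCE103 (3709 ± 453 TPM), the carbonic anhydrase, and PBI2 (3428 ± 361 TPM), an inhibitor of vacuolar proteinase B, were also present. OPI3 (3074 ± 619 TPM) completes phosphatidylcholine synthesis. Of the remaining genes, YBR085C-A (6169 ± 449 TPM), YDR524C-B (4132 ± 1031 TPM), YNL208W (3508 ± 948 TPM) and FMP16 (3387 ± 960 TPM) have no settled function.

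The stress response element was present upstream of most of the highest genes. Windows of 300 bases, starting 450 bases before the start codon and leaving out the 150 bases next to it, were read from the R64 genome, whose start codons lay at the deposited coordinates for 6660 of 6664 genes. The element was searched as AGGGG on both strands. It was present in 26 of the 30 highest windows (86.7%), 76 of the 100 highest (76.0%), 303 of the next 900 (33.7%) and 609 of the lower-ranked 3331 (18.3%), against 1539 of all 6661 (23.1%). The TATAAA motif did not follow the same order, with 16.7%, 29.0%, 37.0% and 37.0% against 37.2% of all windows. CCW12, FBA1, YDR524C-B and OPI3 were the 4 of the 30 highest without AGGGG in the window. A match is a string of letters in a window and not a measured binding site. The windows of HSP12 (chrVI:106806-107105, plus strand, 5 matches), HOR7 (chrXIII:774302-774601, plus strand, 2 matches) and DDR2 (chrXV:231906-232205, minus strand, 3 matches) are shown as examples of highly expressed stress genes with more than 1 match (TMA10, between HOR7 and DDR2 in level, held 1), 5′ to 3′ toward the gene with each match to AGGGG or its complement in capitals.
HSP12: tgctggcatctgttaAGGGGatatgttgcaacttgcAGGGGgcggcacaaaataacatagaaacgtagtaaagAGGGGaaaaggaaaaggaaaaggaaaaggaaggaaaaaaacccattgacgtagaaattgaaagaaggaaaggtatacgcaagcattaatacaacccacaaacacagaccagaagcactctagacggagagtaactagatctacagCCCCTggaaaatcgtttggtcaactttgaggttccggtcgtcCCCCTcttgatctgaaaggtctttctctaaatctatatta
HOR7: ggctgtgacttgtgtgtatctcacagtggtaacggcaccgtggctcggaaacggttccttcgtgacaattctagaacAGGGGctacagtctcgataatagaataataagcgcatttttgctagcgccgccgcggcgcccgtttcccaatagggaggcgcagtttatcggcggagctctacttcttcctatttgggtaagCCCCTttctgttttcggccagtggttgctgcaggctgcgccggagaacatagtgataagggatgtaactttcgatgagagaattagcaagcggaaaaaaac
DDR2: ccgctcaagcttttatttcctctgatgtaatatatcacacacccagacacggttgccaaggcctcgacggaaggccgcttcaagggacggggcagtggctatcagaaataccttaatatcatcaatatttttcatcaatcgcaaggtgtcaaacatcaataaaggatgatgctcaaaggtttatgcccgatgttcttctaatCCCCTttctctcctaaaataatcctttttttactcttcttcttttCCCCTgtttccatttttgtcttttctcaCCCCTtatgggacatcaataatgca

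Gene lists place these levels in pathways. They were written from general knowledge but with earlier results of these data known, so they are not independent of the levels. The 22 genes of the starvation and stationary phase list held 10.7%, 7.0%, 6.30%, 6.47% and 7.04% of TPM in H1_2609, H2_2609, H1_2709, H2_2709 and H_2909. The share was highest in H1_2609, and the other 4 libraries lay between 6.30% and 7.04%. Its median member stood at 1200 TPM, 12 of 22 reached 1000 TPM and 10 were among the 100 highest genes. The lowest members were SNO1 (31.1 ± 27.1 TPM), SNZ2 (18.4 ± 5.38 TPM) and SNZ3 (14.7 ± 2.86 TPM), of the vitamin B6 family. The 30 chaperone and heat shock genes held 5.03% ± 1.03, of which HSP12, a member of both lists, made up 3.28%. Behind it stood the Hsp70 SSA1 (2771 ± 238 TPM) and the cyclophilin CPR1 (2495 ± 107 TPM), and at the low end SSA3 (52.4 ± 5.6 TPM), the ribosome-bound SSB1 (49.4 ± 39.6 TPM) and HSP30 (32.7 ± 19.9 TPM). Reserve carbohydrate genes took 1.46% ± 0.167, led by TPS1 (2789 ± 192 TPM), the trehalose phosphate synthase, UGP1 (1595 ± 261 TPM) and PGM2 (1561 ± 245 TPM). Oxidative stress genes took 2.21% ± 0.116. Together, the stress, starvation and reserve lists held 12.9% ± 1.94 of TPM in 92 genes.

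Glucose-burning enzymes were a second large block. The 17 glycolytic genes held 3.82% ± 0.665 of TPM, with 8 above 1000 TPM, and with the 12 genes of fermentation and glycerol the share was 4.90% ± 0.899. H2_2609 was lowest (3.65%) and H2_2709 highest (6.18%). The glyceraldehyde phosphate dehydrogenase TDH3 was read at 9431, 6208, 7408, 11212 and 9864 TPM and the aldolase FBA1 at 3831, 3391, 4427, 6227 and 4680 TPM, both lowest in H2_2609 and highest in H2_2709. Alcohol dehydrogenase ADH1 (4011 ± 1343 TPM) and pyruvate decarboxylase PDC1 (3518 ± 1106 TPM) led the fermentation list. At the low end of glycolysis stood PFK2 (283 ± 41.3 TPM), HXK2 (258 ± 142 TPM) and PYK2 (75.7 ± 16.9 TPM). Without genes that overlap another gene, the summed share of the members left was 3.53%. That filter dropped HXK1 and GLK1, which share 9.81% and 7.05% of their spans. It also dropped PGK1 (47.6%), GPM1 (62.9%), CDC19 (64.1%) and GPD1 (21.9%). Levels of the dropped genes depend on how shared reads were assigned.

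Paralogues with the same chemistry differed widely in level. Hexokinase 1, which is normally repressed by glucose, stood at 6478 ± 981 TPM (HXK1), and glucokinase at 5387 ± 1157 TPM (GLK1). HXK2, the main hexokinase of cells growing on glucose, was read at 76.9, 440, 323, 291 and 160 TPM. In every library HXK1 thus exceeded HXK2, by 11.9 to 96.5 times. TDH3 exceeded TDH2 by 10 to 25.2 times, PDC1 exceeded PDC5 by 30.1 to 92.4 times and ADH1 exceeded ADH2, the enzyme that oxidises ethanol, by 14.8 to 66.1 times. ENO1 was above ENO2 by 2.42 to 10.3 times. For cytochrome c, CYC7, known as the minor isoform of aerobic cells, exceeded CYC1 by 5.31 to 21.1 times, with 762, 310, 423, 505 and 349 TPM against 36.1 to 58.3 TPM for CYC1. COX5B, the hypoxic isoform, exceeded COX5A by 1.26 to 2.57 times. By contrast, TEF1 and TEF2, which encode the same elongation factor, differed by a ratio of 0.491 to 1.08. Reads of near-identical copies such as these can be split or dropped by the counting, and the shares of multi-mapped reads are not given in the sources used here.

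Sugar transport was concentrated in few genes. HXT2, a high-affinity transporter, was read at 655, 1467, 1493, 1951 and 1551 TPM and HXT5, which accumulates in slow-growing cells, at 1604, 348, 551, 758 and 1328 TPM. H1_2609 was thus lowest for HXT2 and highest for HXT5. HXT7 followed at 724 ± 197 TPM. Of 20 transporters and sensors, 11 were under 10 TPM, and the lowest were HXT9 (2.81 ± 0.669 TPM), HXT14 (0.821 ± 0.677 TPM) and HXT16 (0.099 ± 0.137 TPM). Of 20 genes for galactose, maltose and sucrose, the maltose permease MAL31 stood at 511 ± 40.8 TPM, while the isomaltases IMA4 (0.184 ± 0.0867 TPM) and IMA3 (no count in any library) were not expressed above the floor.

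Nuclear genes for respiration were uniformly present. All 17 genes of the TCA cycle lay between 131 and 910 TPM, with SDH4, CIT1 and LSC1 at the top, and 36 of the 37 genes of the respiratory chain and ATP synthase reached 100 TPM. Their median was 456 TPM, about as high as for the TCA cycle (445 TPM). QCR8 of complex III was the highest (1368 ± 242 TPM) and CYC1 the lowest (44.9 ± 8.18 TPM). The 75 mitochondrial ribosomal protein genes held 0.645% ± 0.0529 with a median of 69.4 TPM. Gluconeogenic and two-carbon genes reached a median of 116 TPM, led by PCK1 (522 ± 306 TPM), MDH2 (433 ± 134 TPM) and IDP2 (202 ± 99 TPM), with JEN1 (43.7 ± 10.8 TPM), MLS1 (30.6 ± 10.1 TPM) and SFC1 (29.2 ± 17.3 TPM) lowest. All 8 mitochondrially encoded genes were under 1 TPM, which the poly(A) selection leaves uninformative.

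Proteasome genes varied little, as did the summed share of vacuolar protease and autophagy genes. The 33 proteasome genes stood between 183 TPM (RPN7) and 590 TPM (PUP3), at a median of 382 TPM and a median coefficient of variation (CV, SD over mean) of 11.0% over the libraries. The 42 genes of vacuolar proteases and autophagy held 1.30%, 1.28%, 1.29%, 1.26% and 1.35% of TPM. Single members of this second list varied more than its sum, with a median CV of 14.3%, against 16.6% over genes of at least 10 TPM. ATG36, for example, was read at 252 TPM in H1_2609 against 86.1 to 108 TPM elsewhere. The list was led by the vacuolar proteinases PRB1 (2360 ± 360 TPM), APE3 (1966 ± 171 TPM) and PRC1 (1560 ± 161 TPM). Highest of the autophagy genes was ATG8 (630 ± 88.6 TPM), which coats the forming autophagosome. ATG16 (0.143 ± 0.16 TPM) was the lowest, and more than 50% of its span is shared with another gene.

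**Figure D3:**
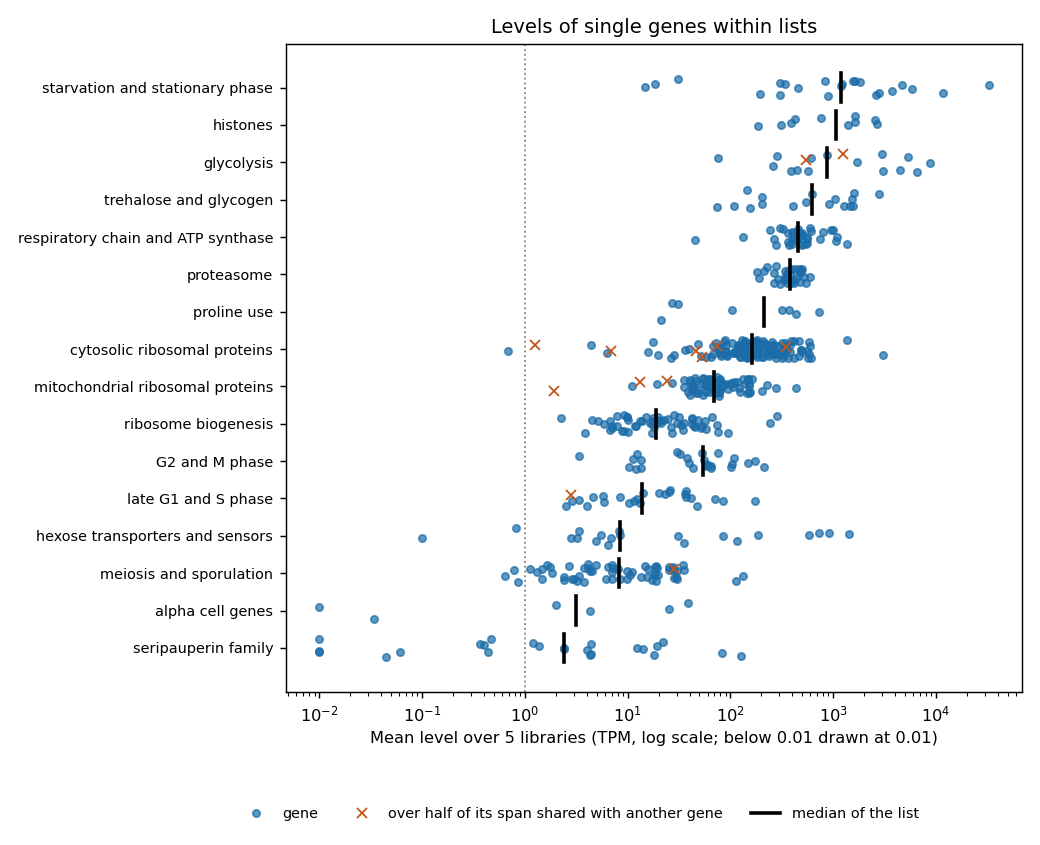
Mean levels (TPM, log axis) of single genes in 16 lists, with a black bar at the list median and crosses for genes that share more than 50% of their span with another gene. The list medians run from 1200 TPM for starvation and stationary phase down to 2.40 TPM for the seripauperin family.

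Genes for using proline and other poor nitrogen sources were well expressed but did not dominate. The proline permease PUT4 was read at 267, 990, 732, 881 and 736 TPM, the proline oxidase PUT1 at 236, 330, 280, 508 and 826 TPM and the next enzyme of the pathway, PUT2, at 153, 409, 288, 329 and 671 TPM. H1_2609 was lowest for all 3, and H_2909 highest for the 2 enzymes. The lowest genes of this list were the activator PUT3 (31 ± 3.1 TPM), PUT7 (27 ± 3.43 TPM) and PRO1 (21 ± 9.95 TPM), the first enzyme of proline synthesis. Among 25 permeases, PUT4 was followed by the general amino acid permease GAP1 (636 ± 325 TPM) and the ammonium permease MEP2 (523 ± 395 TPM), while BAP3 (5.43 ± 1.48 TPM), ALP1 (3.44 ± 1.14 TPM) and PTR2 (2.71 ± 0.858 TPM) were lowest. For allantoin, urea, arginine and GABA, UGA2 (358 ± 54.1 TPM), ASP3-4 (330 ± 201 TPM) and DAL5 (303 ± 333 TPM) led. ASP3-1 and ASP3-2, near-identical copies of ASP3-4, had at most 3 counts in every library, so the 4 copies cannot be told apart. Ammonium assimilation was led by glutamine synthetase GLN1 (293 ± 175 TPM), GDH1 (253 ± 101 TPM) and GDH2 (231 ± 55.9 TPM), and the GATA factors GLN3 (49.9 ± 9.86 TPM) and GZF3 (44.2 ± 17.8 TPM) were lower, with DAL81 (23 ± 3.08 TPM) last.

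Amino acid synthesis took 2.22% ± 0.564 of TPM in 85 genes. Methionine synthase MET6 was the highest (1549 ± 550 TPM), followed in its list by the S-adenosylmethionine synthetases SAM2 (947 ± 470 TPM) and SAM1 (684 ± 301 TPM). CPA1 (901 ± 234 TPM) and HIS3 (879 ± 232 TPM) led the arginine, lysine and histidine list, LEU1 (712 ± 774 TPM) the branched-chain list and ARO8 (486 ± 276 TPM) the list of aromatic amino acids, serine, threonine and asparagine. HIS3, LEU2 (553 ± 353 TPM) and MET17 (371 ± 202 TPM), which are deleted in the parent BY4741, were all read. The study used prototrophic versions with these genes restored on a minichromosome or at HO, and which of them was sequenced is not given in the sources used here, so these levels and that of HO cannot be tied to a copy or a locus. URA3, also deleted in BY4741, stood at 52.4 ± 9.95 TPM. The reporter was assembled in a vector that targets URA3, so this level cannot be tied to a copy either.

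Ribosomal protein genes held a smaller share than the stress, starvation and reserve lists together in every library. Many of them have a paralogue, and reads of near-identical copies can be split or dropped by the counting. The 138 genes together took 1.60%, 4.90%, 3.72%, 3.52% and 1.85% of TPM in H1_2609, H2_2609, H1_2709, H2_2709 and H_2909, a spread of 3.07 times. Only RPL41A (3061 ± 600 TPM) and RPL41B (1368 ± 458 TPM) were among the 100 highest genes. These tiny paralogues made up 14.2% of the ribosomal protein TPM. The third was RPS30A (607 ± 195 TPM), the list median 162 TPM, and 53 of the 138 genes were among the 1000 highest. The 3 lowest were RPL22A (4.41 ± 1.75 TPM), RPL39 (1.26 ± 0.894 TPM) and RPL43A (0.678 ± 0.59 TPM), which share 49.3%, 50.4% and 47.5% of their spans with other genes. The 20 members with any overlap had a median of 63.5 TPM against 179 TPM for the 118 without. RPL28 itself, whose promoter drives the reporter, was read at 18.1, 26.6, 25.8, 19.2 and 8.61 TPM, rank 131 of the 138. Some 44.0% of its span is shared with YGL102C (1.92 ± 0.995 TPM), and the sfGFP transcript from the same promoter was 12.6 times as high as RPL28 by their means.

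Ribosome assembly was lower still. The 63 ribosome biogenesis genes held 0.207% ± 0.124 of TPM, with a median of 18.9 TPM that lies under the 44.2 TPM of all protein-coding genes. NOP10 (287 ± 102 TPM), TIF6 (241 ± 86.2 TPM) and NOP16 (95.2 ± 45.9 TPM) were the highest and UTP20 (4.5 ± 2.78 TPM), RRP9 (3.85 ± 2.33 TPM) and RRP12 (2.24 ± 1.38 TPM) the lowest. The 21 genes of RNA polymerases I and III had a median of 20.2 TPM. Translation factors were higher at a median of 125 TPM, with TEF2 (1088 ± 248 TPM), TEF1 (991 ± 382 TPM) and SUI1 (908 ± 196 TPM) on top. HYP2, the essential factor eIF5A, had no count in any library, but its whole span is shared with another gene, so this zero does not show a silent gene. The stress, starvation and reserve lists exceeded the ribosome and translation lists in every library, by 6.98, 1.86, 2.44, 2.59 and 4.84 times.

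**Figure D4:**
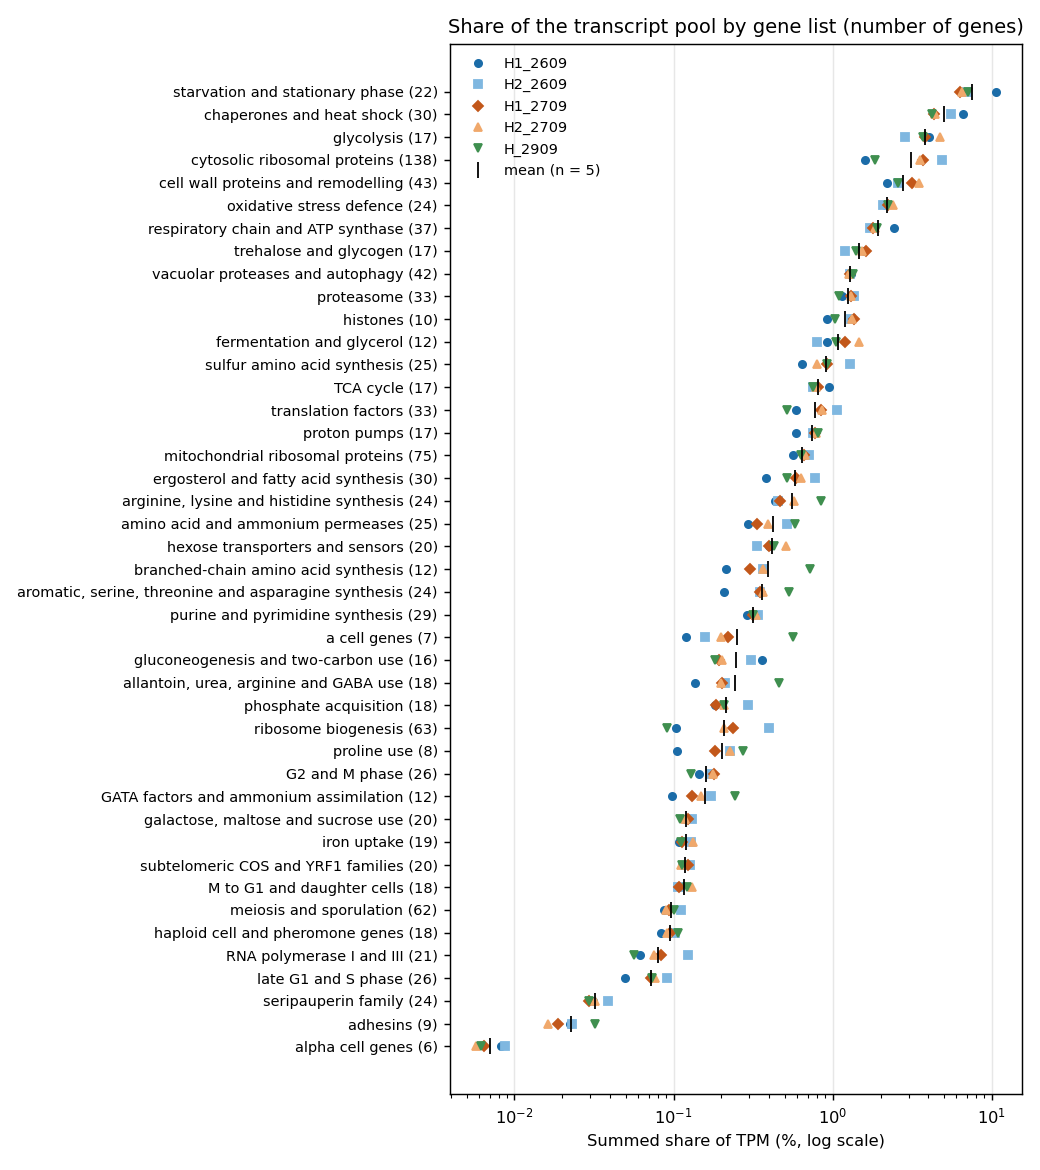
Summed share of TPM (%, log axis) for 43 gene lists, without the mitochondrially encoded genes, strain markers and paralogue sets, with a point for each of the 5 high libraries and a mark at the mean. Shares run from 7.50% for starvation and stationary phase to 0.00705% for alpha cell genes, and lists differ in size as given in parentheses.

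Histones and the cell surface were also prominent. The 10 histone genes had a median of 1074 TPM, the second highest of all lists, led by the H3 genes HHT2 (2675 ± 338 TPM) and HHT1 (2530 ± 583 TPM) and by HTA1 (1621 ± 380 TPM). Cell wall genes held 2.78% ± 0.511, with YGP1 (2797 ± 723 TPM) and CWP2 (2794 ± 1471 TPM) after CCW12, and with DAN1 (1.42 ± 0.616 TPM), a wall protein of anaerobic cells, lowest. Ergosterol and fatty acid genes had a median of 132 TPM with the desaturase OLE1 (1050 ± 564 TPM) first. Iron uptake and phosphate acquisition stood close to the median gene, at 49.0 and 50.1 TPM.

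Of the cell cycle lists, that of late G1 and S phase was low, with a median of 13.7 TPM over 26 genes, while the later phases were near the median protein-coding gene (44.2 TPM). Histone genes, which also mark S phase, formed a separate list and went the other way, with a median of 1074 TPM. The lowest gene of the late G1 and S phase list was the polymerase subunit POL1 (2.51 ± 0.903 TPM). Genes of G2 and M phase had a median of 54.0 TPM, led by the mitotic exit genes SPO12 (210 ± 39.2 TPM), MOB1 (173 ± 12.6 TPM) and DBF2 (148 ± 15.5 TPM), with the Aurora kinase IPL1 (3.35 ± 1.02 TPM) at the bottom. Genes of the M to G1 interval and of daughters had a median of 46.3 TPM, with the CDK inhibitor SIC1 (254 ± 25.3 TPM) and the chitinase CTS1 (162 ± 16 TPM) first and the licensing factor CDC6 (4.69 ± 0.698 TPM) last. In bulk samples, a low level can mean few cells in a phase or little RNA in each, and these cannot be told apart.

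Mating type markers followed the a genotype. The a-factor genes MFA1 and MFA2 were read at 523, 572, 1015, 860 and 2685 TPM and at 425, 696, 898, 854 and 2285 TPM, with H_2909 above all others, and the alpha-factor receptor STE2 at 187 ± 75.9 TPM. The alpha-specific MF(ALPHA)1 (2.01 TPM on average) and STE3 (4.35 ± 1.5 TPM) were low, HMLALPHA2 had at most 3 counts per library and HMLALPHA1 none. SAG1 (39 ± 8.97 TPM) and MF(ALPHA)2 (25 TPM on average) were the highest alpha genes. Of 18 pheromone response and haploid genes, RME1 (222 ± 37.9 TPM), the repressor of meiosis, was the highest, and the mating genes FUS1 (6.75 ± 4.92 TPM), FUS2 (3.82 ± 0.918 TPM) and FIG1 (0.456 ± 0.233 TPM) were at the low end. The endonuclease HO was at 1.41 ± 0.551 TPM.

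Few functions were silent in the strict sense. Over all 5 libraries, 409 genes never exceeded 3 counts and 297 had none. Of these 409, 238 were nuclear protein-coding genes with more than 50% of the span shared, 46 lay on the mitochondrial genome and 65 were nuclear transfer RNA genes. Another 17 were protein-coding genes with up to 50% of the span shared and 16 were other nuclear RNA or unannotated genes. The last 27 were among the 5320 nuclear protein-coding genes without any overlap. They included PAU1, PAU14, PAU16, PAU21 and PAU22 of the seripauperin family, the asparaginase copies ASP3-1 and ASP3-2 and the silent mating cassette gene HMLALPHA2, while most others are uncharacterised. Several have near-identical copies, for which a low count may reflect multi-mapped reads. Levels also differed with position. Within 10 kb of a chromosome end, 15 of 113 such genes had at most 3 counts and the median level was 4.86 TPM, against 7 of 4824 and 58.1 TPM more than 40 kb away. Between 10 and 20 kb the median was 18.5 TPM and between 20 and 40 kb 46.6 TPM.

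Counts of meiosis genes were low rather than absent. The use of strand in counting is not given in the sources used here. Reads from the opposite strand therefore cannot be told apart from message of these genes. Of 62 genes for meiosis and sporulation, 3 were under 1 TPM, namely SPO19 (0.861 ± 0.747 TPM), OSW1 (0.788 ± 0.696 TPM) and SAE3 (0.643 ± 0.464 TPM), and 34 were under 10 TPM. The median was 8.24 TPM. SPO73 (134 ± 20.7 TPM) and SPR6 (114 ± 15.6 TPM) were far above this median and MND1 stood at 35.2 ± 17.2 TPM. The master regulators, chosen after their values were seen, were detected in each library, with IME1 at 18.8, 11.1, 11.2, 12.5 and 19.7 TPM, IME2 at 18.3 ± 1.95 TPM and NDT80 at 19.8 ± 3.81 TPM. The number under the threshold depends on where it is set, with 0 genes under 0.5 TPM and 24 under 5 TPM. In the seripauperin family, a set of near-identical subtelomeric genes, 9 of 24 were under 1 TPM, yet PAU7 stood at 127 ± 18.8 TPM. The 9 adhesins ran from 7.28 TPM (FLO1) to 90.9 TPM (AGA2), with no member under 1 TPM.

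Libraries of the same fraction were not equal. Over 5565 genes of at least 10 TPM, Spearman's rho between libraries, across genes that are not independent, ranged from 0.899 (H2_2609 and H_2909) to 0.990 (H1_2709 and H2_2709). The latter pair differed by more than 2 times in 17 genes, the pair of H1_2609 and H2_2609 in 725 genes. Chi-square over degrees of freedom was 34.4 to 396 for the 10 pairs, above the value near 1 of counting noise alone, which repeat preparations of the same RNA can also exceed. The median CV was 16.6%, 61.1% of these genes varied by less than 20%, and 421 genes had a CV above 50%. The most even gene was UGO1 of the mitochondrial outer membrane at 58.3 ± 0.556 TPM, followed by GTF1, SEC27, RIM21 and TFG1, all with CVs of at most 1.73%.

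Growth genes set H2_2609 apart from H1_2609 and H_2909. Of all 5565 genes of at least 10 TPM, 2452 were highest in H2_2609 and 1169 in H_2909, so the former was already the most frequent maximum. Each of the 63 ribosome biogenesis genes was highest in H2_2609, and 47 were lowest in H_2909 and 16 in H1_2609. Of 137 ribosomal protein genes at 1 TPM or more, 129 were highest in H2_2609, and 89 were lowest in H1_2609 and 46 in H_2909. The library of the lowest value was not counted over all genes, so these lowest counts have no share beside them. Of the 5565 genes, 72 were at least 2 times below every other library in H1_2609 and 57 in H_2909, against 5 in H2_2609. NOP1, the methyltransferase fibrillarin, was read at 15.4, 199, 71.3, 74.2 and 7.28 TPM. SNU13 (14.0, 157, 48.8, 60.6 and 6.10 TPM) and the RNA helicase DBP2 (16.3, 174, 88.8, 49.7 and 2.98 TPM) had the same extremes, with H1_2709 and H2_2709 between them. The sfGFP message was also highest in H2_2609 (502 TPM) and lowest in H_2909 (90.9 TPM) and H1_2609 (130 TPM), the same 3 libraries as for the growth genes. The part of the reporter level in these differences was not tested.

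H_2909 carried more message for several groups of amino acid synthesis and nitrogen scavenging genes, though not for all. Sulfur amino acid synthesis was highest in H2_2609 (1.28% of TPM, against 0.917% in H_2909). The permease list summed highest in H_2909 (0.577% of TPM, against 0.515% in H2_2609). By gene, 12 of 25 permeases were highest in H2_2609 and 8 in H_2909, against 2452 and 1169 of all 5565 genes. Of 4777 protein-coding genes of at least 10 TPM without overlap, 68 were at least 2 times above every other library in H_2909. Of these 68, 37 were in no list. The others included 7 genes of the arginine, lysine and histidine list (24 genes) and 6 of the allantoin, urea, arginine and GABA list (18 genes). They also included 5 a cell genes (a list of 7) and 4 branched-chain genes (a list of 12). LEU1, isopropylmalate isomerase, was read at 279, 343, 380, 469 and 2091 TPM, SNZ1 at 69.4, 98.1, 110, 117 and 576 TPM and the allantoate permease DAL5 at 65.3, 125, 195, 243 and 887 TPM. H_2909 was 3.65 to 4.91 times above the next library for these 3 genes, although DAL5 also ranged from 65.3 to 243 TPM among the other 4. TMT1 (120, 75.0, 168, 199 and 725 TPM) showed the same pattern. ARG1, argininosuccinate synthetase, was more graded with 79.1, 79.9, 281, 545 and 1088 TPM. The branched-chain list was highest in H_2909 for 11 of its 12 genes, against 1169 of all 5565 genes. It was lowest in H1_2609 for 7 genes, for which no count over all genes was taken. The list held 0.215%, 0.363%, 0.303%, 0.366% and 0.724% of TPM in the same library order.

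Motif shares were also taken for the groups that varied. TGACTC, the Gcn4 core searched on both strands, was present in 36 of 85 windows of amino acid synthesis genes (42.4%) and in 26 of the 68 genes that were at least 2 times higher in H_2909 (38.2%), against 8.36% of all windows. GATAAG was present in 33 of 62 windows of nitrogen source genes (53.2%) and 22 of those 68 (32.4%), against 14.3%. GATGAG, the PAC motif, was found upstream of 18 of 63 ribosome biogenesis genes (28.6%), against 17.2%, but also of 18 of the 62 nitrogen source genes (29.0%) and of only 6 of the 38 genes at least 2 times higher in H2_2609 (15.8%). The Rap1-like CCCATNCA was found upstream of 33 of 138 ribosomal protein genes (23.9%), against 3.03%, and its window at RPL28 held none. The windows of LEU1 (chrVII:478803-479102, minus strand) and SNZ1 (chrXIII:457958-458257, plus strand) are shown with TGACTC in capitals, DAL5 (chrX:719216-719515, plus strand) with GATAAG and NOP1 (chrIV:426914-427213, plus strand) with GATGAG, on either strand, as examples from the 10 most variable genes, chosen for their matches.
LEU1: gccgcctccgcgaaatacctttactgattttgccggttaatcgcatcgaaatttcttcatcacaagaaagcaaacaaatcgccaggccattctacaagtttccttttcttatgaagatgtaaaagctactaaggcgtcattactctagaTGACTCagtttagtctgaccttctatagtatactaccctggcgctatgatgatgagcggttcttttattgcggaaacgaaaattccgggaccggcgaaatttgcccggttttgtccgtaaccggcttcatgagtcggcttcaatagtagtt
SNZ1: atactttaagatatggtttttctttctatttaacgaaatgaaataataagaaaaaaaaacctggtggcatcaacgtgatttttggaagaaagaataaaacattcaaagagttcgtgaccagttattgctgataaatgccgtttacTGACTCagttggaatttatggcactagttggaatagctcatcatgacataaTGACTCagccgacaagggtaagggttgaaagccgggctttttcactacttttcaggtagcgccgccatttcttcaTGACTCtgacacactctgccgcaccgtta
DAL5: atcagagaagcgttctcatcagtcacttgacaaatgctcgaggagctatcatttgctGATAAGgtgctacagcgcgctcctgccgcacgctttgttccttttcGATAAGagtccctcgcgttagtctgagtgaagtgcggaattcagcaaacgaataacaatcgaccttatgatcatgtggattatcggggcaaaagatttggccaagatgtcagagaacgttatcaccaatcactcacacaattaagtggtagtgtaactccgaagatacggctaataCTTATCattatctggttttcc
NOP1: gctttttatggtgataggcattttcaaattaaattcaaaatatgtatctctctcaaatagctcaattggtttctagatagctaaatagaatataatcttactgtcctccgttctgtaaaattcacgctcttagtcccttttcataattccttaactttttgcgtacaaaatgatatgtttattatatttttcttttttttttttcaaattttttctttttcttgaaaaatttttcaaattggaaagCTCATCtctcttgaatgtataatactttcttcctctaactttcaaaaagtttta

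The stress, starvation and reserve lists together were highest in H1_2609 (16.4% of TPM), and ergosterol and fatty acid synthesis was lowest there (0.380%). Not every stress list went this way. Oxidative stress defence was highest in H2_2709 (2.38%, against 2.14% in H1_2609) and trehalose and glycogen in H1_2709 (1.61%, against 1.57%). Besides the high HSP12 and DDR2 of H1_2609, BTN2, a factor in the sorting of misfolded proteins, was read at 475 TPM there against 54.3 to 84.0 TPM elsewhere. YAT1, a carnitine acetyltransferase, and HSP30, a plasma membrane heat shock protein, followed at 2.82 and 2.57 times the next library, the former chosen after its values were seen. In H1_2609, 50 of the 4777 protein-coding genes of at least 10 TPM without overlap were at least 2 times below every other library. Of these 50, 22 were in no list, 7 belonged to ergosterol and fatty acid synthesis (a list of 30 genes) and 6 to late G1 and S phase (26 genes). Another 3 were hexose transporter genes (a list of 20). ERG25, the sterol methyl oxidase, was the first of them by this ratio and was chosen after its values were seen. It was read at 48.3 TPM against 218 to 329 TPM. In H2_2609, besides growth genes, the glycerol transporter STL1 stood at 97.2 TPM against 15.8 to 21.1 TPM. None of the 4777 genes was at least 2 times above every other library in H1_2709 or H2_2709.

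**Figure D5:**
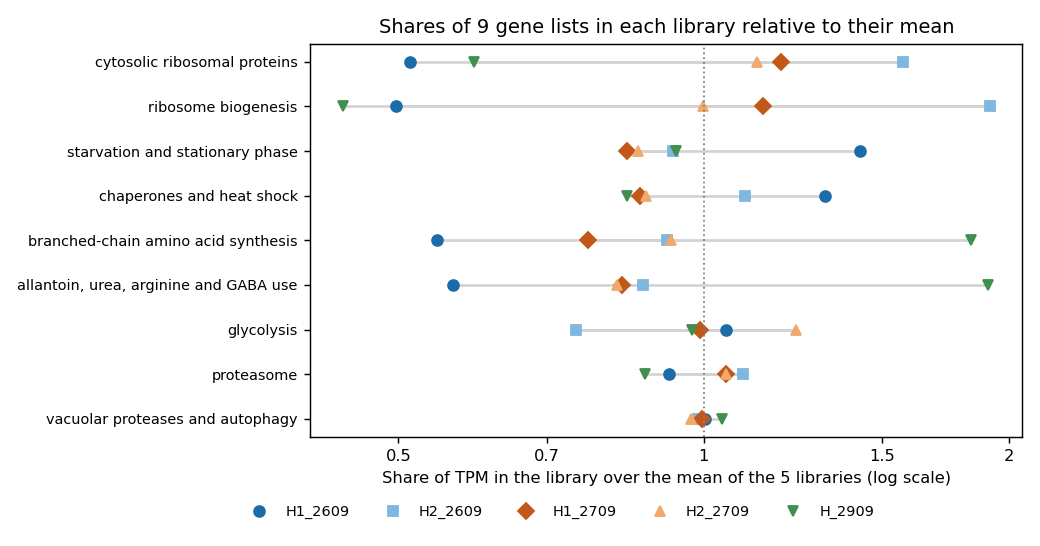
Share of TPM of 9 gene lists in each high library divided by the mean of the 5 libraries (log axis, dotted line at 1). Ribosomal protein and ribosome biogenesis genes were lowest in H1_2609 and H_2909, branched-chain and allantoin genes highest in H_2909, and the vacuolar protease and autophagy list varied least.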

How the data were processed

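RNA sequencing libraries from high cells were used, and the 5 libraries from low cells were left out. The authors removed adaptor and low-quality reads, aligned the rest by HISAT2 and deposited raw counts per gene. The authors also deposited FPKM values, which served as an alternative. The counting program and its use of strand are not given in the sources used here. TPM and CPM were computed from the counts with Python 3.11.15 and the deposited gene length, a coding length without UTRs, and averaged over 5 libraries. edgeR 4.0.16 supplied TMM factors for an alternative. No test between groups was run. Dixon's limit was applied to single libraries, and chi-square over degrees of freedom described library pairs. Genes with at most 3 counts in every library were treated as undetected, a floor that covers counting error only, as PCR copies of a molecule were not told apart. TPM recovery was tested on simulated counts. Upstream windows came from RefSeq R64, with which 6036 of 6048 shared gene identifiers agreed in start and end. Symbols came from the deposited table, then RefSeq. Lists can share genes, and the 46 lists and their members were chosen with earlier results of these data known. Genes were named by rule, as the 30 highest, the 3 highest and 3 lowest of each list (not every list is described, and 1 gene is not reported here), the 10 most and 5 least variable genes, strain and sort markers, and paralogues. Alternatives were other normalizations, filters and thresholds and each library left out.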

Additional observations from a re-analysis of the deposited data

Results flagged for a closer look

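In 17 of the 99 list shares and gene levels examined, a single library stood apart from the other 4 by more than Dixon's 95% limit for 5 samples, a limit that chance passes in about 1 of 20 groups. That rate does not apply to the 10 most variable genes, which were picked for their spread and gave 6 of the 17 (BTN2, SNZ1, DAL5, LEU1, TMT1 and STL1). H1_2609 was that library in 7, H2_2609 in 2 and H_2909 in 8, and these values are not independent, since lists share members with each other and with the genes.

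In H1_2609, the respiratory chain and ATP synthase list held 2.43% of TPM against 1.72% to 1.91%, the starvation and stationary phase list 10.7% against 6.30% to 7.04% and the proton pump list 0.585% against 0.750% to 0.809%. Single genes there were DDR2 at 18317 TPM against 8997 to 11526, GLK1 at 7409 against 4585 to 5266, LSP1 at 4685 against 3434 to 3690 and BTN2 at 475 against 54.3 to 84.0. In H2_2609, phosphate acquisition held 0.295% against 0.181% to 0.209%, and STL1 stood at 97.2 TPM against 15.8 to 21.1.

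In H_2909, the allantoin, urea, arginine and GABA list held 0.462% against 0.137% to 0.211% and the a cell genes 0.562% against 0.120% to 0.221%. The single genes were SNZ1 at 576 TPM against 69.4 to 117, DAL5 at 887 against 65.3 to 243, LEU1 at 2091 against 279 to 469, TMT1 at 725 against 75.0 to 199, MFA1 at 2685 against 523 to 1015 and MFA2 at 2285 against 425 to 898.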

How the results depend on the processing

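The 8 summary results stayed within 1.5 times (counts) or 1 SD between libraries (shares) in 100 of 111 alternatives, among them the FPKM values, TMM factors and medians over libraries. Without division by gene length, 450 genes held 50% of the total, the 100 highest held 27.2%, ribosomal protein genes 1.38%, glycolysis and fermentation 6.27%, and 5 meiosis genes were under 1. With 200 bases taken off each length, but no length set under 100 bases, the 100 highest held 39.9% and glycolysis and fermentation 3.82%. Without genes that overlap another gene, 115 genes were undetected and glycolysis and fermentation held 3.53%, fewer genes being counted. Meiosis genes under a threshold of 0.5 and of 5 TPM numbered 0 and 24. Leaving out each library in turn gave 277 to 318 genes holding 50%, 33.0% to 34.9% in the 100 highest, 6579 to 6609 genes at 1 TPM or more, 415 to 439 undetected genes, ribosomal protein shares of 2.67% to 3.50% (lowest without H2_2609), glycolysis and fermentation shares of 4.58% to 5.22%, 3 meiosis genes under 1 TPM each time and median CVs of 14.0% to 17.9%. Counting only the 118 ribosomal protein genes without overlap, an alternative chosen after seeing the data, gave 2.92%. Of the 30 highest genes, 26 moved without division by length and 17 with shortened lengths, which took HSP12 to 53428 TPM. The depth limits only genes near 3 counts, and the spread between libraries limits the rest. No paired analysis was possible because no test compares groups here.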

Other observations

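The subtelomeric COS genes, which encode membrane proteins that promote sorting to the vacuole, were not silent. COS6 stood at 367 ± 45.8 TPM, COS8 at 225 ± 24.5 TPM and COS1 at 207 ± 13.4 TPM, whereas the near-identical helicase copies YRF1-2 (0.637 ± 0.174 TPM) and YRF1-8 (0.0247 ± 0.0227 TPM) were near the floor. Purine and pyrimidine synthesis summed to 0.290% to 0.338% of TPM in the libraries, although its genes varied (median CV 25.6%, against 16.6% over genes of at least 10 TPM), with ADE16 (475 ± 21.6 TPM), URA10 (236 ± 78.6 TPM) and ADE8 (221 ± 25.5 TPM) highest.

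Of the 100 highest genes, 51 belonged to none of the lists, so the description by pathway leaves about as many of the leading genes aside as it names. All lists together covered 1164 genes and 38.5% ± 1.16 of TPM. Across 5240 genes, level and gene length were related with a Spearman's rho of -0.24 by TPM and 0.29 by CPM, a description of genes that are not independent.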
